A study of Homo sapiens with 12 samples.

Results

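The 10 genes described here encode histone lysine methyltransferases, enzymes that put methyl groups on lysines of the histones around which DNA is wound. They were chosen by name as KMT2A, KMT2B, KMT2C, KMT2D, SETD1A, SETD1B, SETD2, NSD1, NSD2 and DOT1L. All 10 were found through their Entrez gene numbers among the 10536 genes named in the peak lists, and the rule that lists them uses no measured value, although they were picked with earlier results of these data known. The data were lists of RNA stretches enriched for N6-methyladenosine (m6A) in 143B cells, an established human osteosarcoma line, made by MeRIP-seq, the sequencing of RNA fragments recovered by an m6A antibody. ALKBH5, which demethylates m6A, was knocked down with siRNAs, control cells received scrambled siRNA, and both were harvested at 48 h. Each condition had 3 immunoprecipitated libraries with 1 peak list each, and the 6 input samples of the series were not analysed here.

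The replicate number stands for a method as well as a sample. Per the protocol in the labels, replicates 1 and 3 began with polyadenylated RNA and used different antibodies, while replicate 2 began with total RNA and used a kit with a further antibody. This conflicts with another label, which gives the replicate 1 antibody for all 6 immunoprecipitates, so the antibody of replicates 2 and 3 is uncertain. Because of the protocol the knockdown was set beside the scrambled library of the same number for lengths and calls. Group means, their SDs and the exact permutation tests of 3 against 3 libraries ignore this pairing. Their spread therefore includes that between the methods. The labels do not say whether the numbers were separate cultures, so p-values measure only the spread between these samples, which may be technical.

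As background, m6A is laid down on messenger RNA as it is made, by a complex around METTL3 and METTL14, often in long internal exons and near stop codons, and it is known mainly for shortening the life of transcripts and altering their processing. ALKBH5 reverses it in the nucleus. The 10 enzymes fall into groups by the lysine they modify. KMT2A and KMT2B act on H3K4 at promoters of developmental genes, KMT2C and KMT2D place a single methyl group on H3K4 at enhancers, and SETD1A and SETD1B make most of the trimethylated H3K4 at active promoters. SETD2 makes trimethylated H3K36 behind elongating RNA polymerase II, NSD1 and NSD2 make dimethylated H3K36, and DOT1L modifies H3K79 and is the one member without a SET domain.

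The lists held between 5677 and 18724 peaks, the shortest being those of replicate 2. They carry no read counts, so the depth is unknown and a missing peak does not show a missing mark. More methyl marks and more RNA of a gene cannot be told apart from these lists. ALKBH5 itself had a peak in 0 of 3 knockdown and 2 of 3 scrambled libraries, which is no measure of its RNA. Of 10 osteoblast and osteosarcoma markers, 5 had a peak in any library, led by TWIST1 with peaks in 6 of 6, and SP7, ALPL, SPARC, COL1A2 and VIM had none. None of the 5 blood, 5 epithelial and 5 endothelial markers had a peak.

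Every one of the 10 genes had a peak in all 6 libraries, against a background of 23.3% of all genes named in any list. Together they held 325 peaks, which joined into 60 sites. A site is a set of peaks from any library whose exon blocks share 1 bp or more on 1 strand, and sites are numbered here from the 5′ end of each gene. No peak of these genes was listed for a second gene at the same position, and no site held a peak of another gene. KMT2A had 50 peaks summed over the libraries, which ranked 18 among 10536 genes. KMT2D had 48 (rank 22), KMT2C 47 (rank 24), SETD2 37 (rank 45) and NSD1 34 (rank 56). SETD1B had 29 (rank 107), NSD2 26 (rank 164) and SETD1A 23 (rank 243). KMT2B, with 16 (rank 709), and DOT1L, with 15 (rank 854), had the fewest. The median gene had 6.

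Many of the sites were long and shared between libraries. Of the 60 sites, 23 were called in all 6 libraries, 38.3% against 13.1% of the 20892 regions that carry a gene number. Only 6 of the 60, 10.0%, were called in a single library, against 28.6% of all regions. The median site of the 10 genes spanned 570.5 nt of exon, against 330 nt over all regions. Among sites called in all 6 libraries the medians were equal, at 899 nt. The longest uninterrupted exon stretch under a peak ranged from 839 nt in DOT1L to 1950 nt in KMT2A, with a median of 1155.5 nt over the 10 genes and 449 nt over all genes with a peak. These figures describe the genes without a test, since long transcripts offer more room for peaks and transcript lengths of the lists' genome build were not used here.

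**Figure D1:**
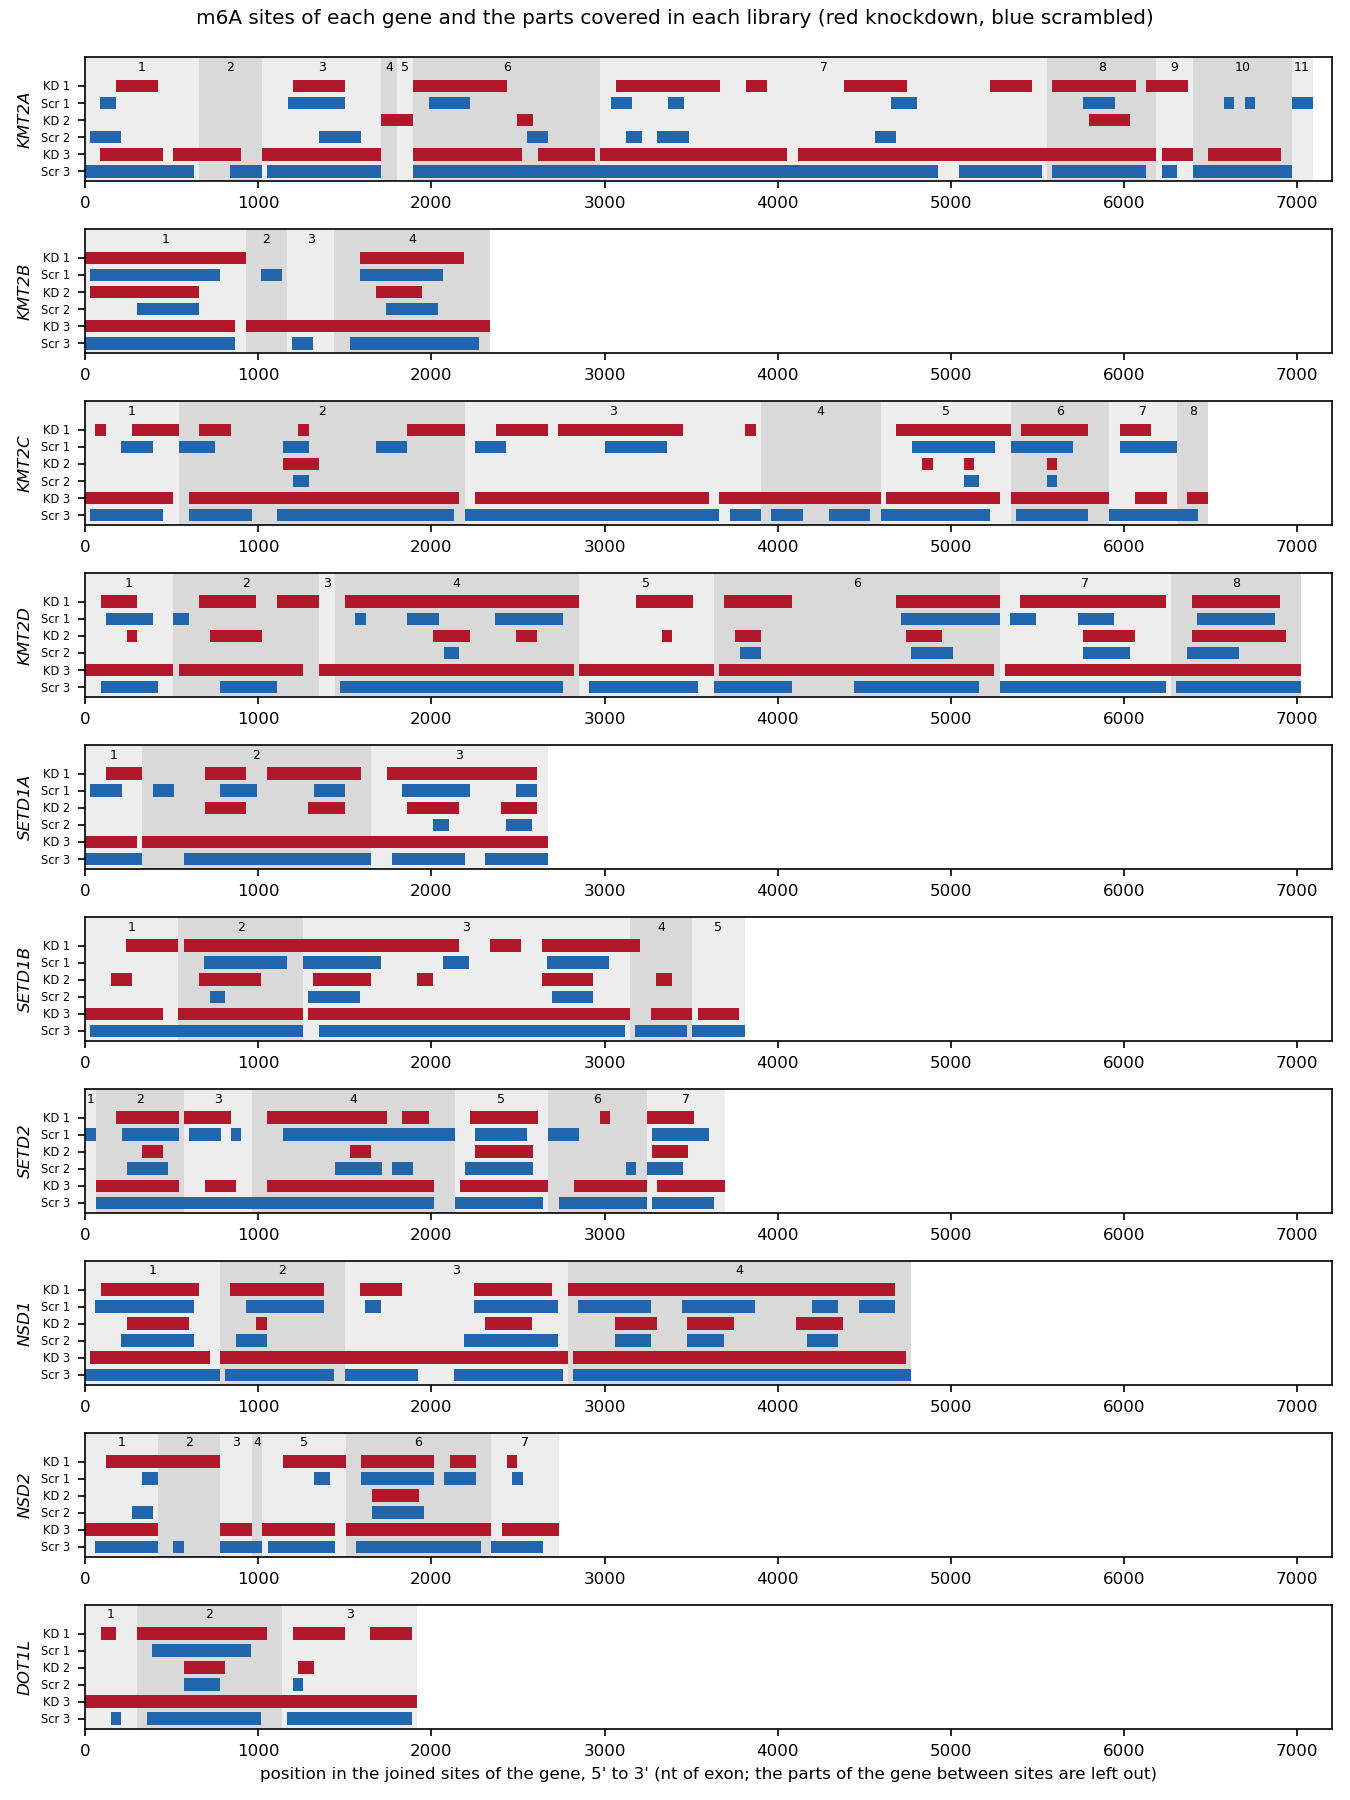
Sites of the 10 genes and the parts covered by peaks in each library. The x axis is nt of exon with the sites of a gene laid end to end from 5′ to 3′, so gene parts between sites are left out; grey bands mark the numbered sites, red bars peaks of the ALKBH5 knockdown (KD) and blue bars peaks of the scrambled siRNA (Scr), by replicate number. Replicate 3 covered the most exon of each gene and replicate 2 the least, and SETD2 site 5 and NSD1 site 1 were covered in all 6 libraries.

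KMT2A (gene number 4297, chromosome 11, plus strand; all positions are on hg19) had the most sites, 11, spread over 55.0 kb from 118342473 to 118397449. KMT2A is the enzyme fused to other proteins in many leukaemias. Its peaks covered 3128, 514 and 6159 nt in the knockdown of replicates 1, 2 and 3 and 1450, 935 and 6186 nt in the scrambled libraries. The knockdown was higher in replicate 1, lower in replicate 2 and 27 nt lower in replicate 3, so the direction differed between replicate numbers. The longest site of all 10 genes was KMT2A site 7, at 118374693 to 118377272, an uninterrupted 2580 nt. Peaks covered 1323, 0 and 2521 nt of it in the knockdown and 363, 393 and 2431 nt in the scrambled libraries.

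KMT2A was also the gene whose peaks overlapped least within a pair. In replicate 2 the knockdown and scrambled libraries shared 31 nt, 3.32% of the scrambled and 6.03% of the knockdown length, while in replicate 3 they shared 5590 nt, 90.4% of the scrambled length. In replicate 2, sites 1, 3 and 7 had peaks only with scrambled siRNA and sites 4, 5 and 8 only in the knockdown. Sites 4 and 5 were called in knockdown replicate 2 alone, each as a spliced peak of 91 nt. Site 8, at 118392652 to 118393282, was the best-ranked KMT2A site of every knockdown list, at within-list percentiles of 83.6, 91.2 and 85.8, and had no peak in scrambled replicate 2. A within-list percentile orders the peaks of 1 list by the score the authors deposited, with 100 for the best score. Site 6 was the one KMT2A site called in all 6 libraries, yet no base of KMT2A was covered in all 6.

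KMT2B (gene number 9757, chromosome 19, plus strand) is the close relative of KMT2A. It had 4 sites, of which the first and the last were called in all 6 libraries. Its peaks covered 1527, 899 and 2278 nt in the knockdown of replicates 1, 2 and 3 and 1350, 660 and 1738 nt in the scrambled libraries. The knockdown was longer in all 3 pairs, by 177, 239 and 540 nt, although the groups overlapped, since the scrambled library of replicate 3 was above knockdown replicates 1 and 2. KMT2B site 1, at 36210699 to 36211626, was covered over 928, 629 and 869 nt in the knockdown and 749, 360 and 869 nt in the scrambled libraries. A stretch of 360 nt in it, 36210998 to 36211357, was covered in all 6 libraries. Site 4, at 36223027 to 36224004, reached percentiles of 98.5, 89.8 and 93.3 in the knockdown lists and 93.0, 50.4 and 79.3 in the scrambled lists. The median percentile of all KMT2B peaks was 96.0, 91.8 and 56.0 in the knockdown lists and 93.0, 62.8 and 79.3 in the scrambled lists. Sites 2 and 3, called in 2 libraries each, ranked between 14.1 and 34.1.

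KMT2C (gene number 58508, chromosome 7, minus strand) and KMT2D, the enhancer enzymes, had 8 sites each. KMT2C is known to share near-identical sequence with related copies elsewhere in the genome, and how the authors assigned such reads is not given, so its values are less certain. Its peaks covered 3219, 394 and 5887 nt in the knockdown and 2437, 243 and 5439 nt with scrambled siRNA, so the knockdown was longer in every pair. Its length differed widely between replicate numbers, since replicate 3 covered 5439 nt or more and replicate 2 at most 394 nt. Of its 8 sites, 3 were called in all 6 libraries, and each of those had a stretch of 61 nt common to all. The longest, site 3 at 151873358 to 151875068 (1711 nt), had no peak in either library of replicate 2. In replicates 1 and 3 it covered 1083 and 1592 nt with the knockdown against 542 and 1652 nt with scrambled siRNA, so in replicate 3 it was longer with scrambled siRNA. Site 5, at 151855950 to 151859743, crossed a gap of 3.04 kb between exon blocks in 5 of the 6 libraries.

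KMT2D (gene number 8085, chromosome 12, minus strand) had the largest difference in mean covered length of the 10 genes. Its peaks covered 4807, 1957 and 6782 nt in the knockdown of replicates 1, 2 and 3 and 2377, 1025 and 5433 nt in the scrambled libraries. Each knockdown library was above its scrambled partner, with ratios of 2.02, 1.91 and 1.25. The group means were 4515 ± 2426 nt (SD, n = 3) and 2945 ± 2258 nt (SD, n = 3), a difference of 1570 nt that was smaller than either SD (p = 0.5 by the two-sided exact permutation test). The difference was 437 nt without knockdown replicate 3 and 610 nt without scrambled replicate 2. It was 2814 nt without scrambled replicate 3 and 2850 nt without knockdown replicate 2. With both libraries of replicate 1, 2 or 3 left out, which keeps the pairs whole, it was 1140.5, 1889.5 and 1681 nt. KMT2D also had 4 sites called in more knockdown than scrambled libraries and none called in fewer. Site 2, at 49443474 to 49444313, covered 572, 301 and 720 nt in the knockdown and 90, 0 and 331 nt with scrambled siRNA. Site 5, at 49426770 to 49427549, had calls in 3 knockdown libraries and 1 scrambled library, with 331, 61 and 780 nt against 0, 0 and 630 nt. The call of site 5 in knockdown replicate 2 was among the weakest of its list, at a percentile of 0.380.

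The 4 KMT2D sites called in every library were sites 4, 6, 7 and 8. Site 4, at 49431219 to 49432628, is an uninterrupted 1410 nt and was longer in the knockdown of every pair, at 1350, 331 and 1380 nt against 633, 91 and 1290 nt. No base of site 4 was covered in all 6 libraries, so its calls are joined through overlapping peaks. Site 8, at 49415005 to 49415925, was also longer in every pair, at 511, 541 and 751 nt against 451, 301 and 721 nt. Site 7, at 49420076 to 49421065, was the best-ranked KMT2D site of both replicate 3 lists, at percentiles of 98.7 in the knockdown and 97.0 in the scrambled library.

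SETD1A (gene number 9739, chromosome 16, plus strand), a catalytic subunit of the SET1 complexes, had 3 sites. Its peaks covered 1863, 964 and 2642 nt in the knockdown and 1206, 242 and 2193 nt in the scrambled libraries. The knockdown was longer in all 3 pairs, and the ratio of 3.98 in replicate 2 was the highest of any member in any pair. That ratio rested largely on site 2, at 30975937 to 30977395, where knockdown replicate 2 covered 452 nt and scrambled replicate 2 had no peak. Site 3, at 30990589 to 30991899, was called in all 6 libraries and covered 871, 512 and 1021 nt against 512, 242 and 782 nt, again longer in every pair. A gap of 0.290 kb between exon blocks was crossed by a peak at site 3 in every library.

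SETD1B (gene number 23067, chromosome 12, plus strand), the other catalytic subunit, had 5 sites within 22.2 kb. Its peaks covered 2640, 1293 and 3509 nt in the knockdown and 1441, 631 and 3599 nt in the scrambled libraries. The knockdown was longer in replicates 1 and 2 and 90 nt shorter in replicate 3. SETD1B had the most spliced peaks of the 10 genes, 13 of the 43. Its site 3, at 122257389 to 122265471, joined 4 exon blocks, and the junction of 1.45 kb at 122261656 to 122263105 was crossed in all 6 libraries. Sites 1 and 4 were each called in 3 knockdown libraries and 1 scrambled library, that of replicate 3. The knockdown calls of replicates 1 and 2 had low percentiles, 33.6 and 28.2 at site 1 and 18.4 and 19.2 at site 4. Site 1, at 122247565 to 122248103, covered 300, 121 and 450 nt against 0, 0 and 510 nt, and site 4, at 122265962 to 122268317, covered 61, 91 and 241 nt against 0, 0 and 301 nt.

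SETD2 (gene number 29072, chromosome 3, minus strand) was the one member with a shorter covered length in the knockdown of every pair. Its peaks covered 2195, 782 and 2943 nt in the knockdown of replicates 1, 2 and 3 and 2436, 1294 and 3333 nt in the scrambled libraries. The differences were -241, -512 and -390 nt, with ratios of 0.901, 0.604 and 0.883. The means were 1973 ± 1097 nt (SD, n = 3) and 2354 ± 1022 nt (SD, n = 3), and the groups overlapped (p = 0.6 by the two-sided exact permutation test). The difference of -381 nt turned to 215 nt without knockdown replicate 2 and to 108 nt without scrambled replicate 3. With both libraries of replicate 1, 2 or 3 left out, which keeps the pairs whole, it was -451, -315.5 and -376.5 nt. Of all genes called in 6 libraries, 2.08% were shorter in every pair. The longest SETD2 site was site 4, at 47158224 to 47162821, which covered 842, 121 and 961 nt in the knockdown and 991, 392 and 1051 nt with scrambled siRNA. Site 4 was the one site among the 23 called in all 6 libraries that was shorter in every pair.

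The best-ranked SETD2 site in 5 of the 6 lists was longer in the knockdown in 1 pair, shorter in 1 and equal in 1. This was site 5, at 47125381 to 47127732, which covered 390, 330 and 510 nt in the knockdown and 300, 390 and 510 nt in the scrambled libraries. Its percentiles were 87.9, 97.8 and 93.5 in the knockdown lists and 91.4, 99.6 and 96.1 in the scrambled lists, and the value of 99.6 in scrambled replicate 2 was the highest of all 325 peaks. A stretch of 300 nt, 47125501 to 47125800, was covered in every library. Site 2, at 47164349 to 47164859, kept its call in all 6 libraries but ranked lower in each knockdown list, at 76.7, 43.5 and 70.2 against 92.5, 93.9 and 87.8. Percentiles of lists of different length show no change in themselves. Site 1, at 47205407 to 47205467, was called in scrambled replicate 1 alone, at a percentile of 0.918.

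NSD1 (gene number 64324, chromosome 5, plus strand) had the most widely shared sites. All 4 of its sites were called in all 6 libraries, and 1266 nt of it, 26.6% of the length covered in any library, was covered in all 6, the largest such share among the members. Its peaks covered 3691, 1475 and 4619 nt in the knockdown and 2796, 1745 and 4409 nt in the scrambled libraries, longer in replicates 1 and 3 and shorter in replicate 2. Site 1, at 176562280 to 176563059, ranked between 92.8 and 97.6 in all 6 lists. It covered 571, 361 and 691 nt in the knockdown and 571, 421 and 780 nt with scrambled siRNA. Site 4, at 176720892 to 176722870 and 158.6 kb downstream of the first peak, is an uninterrupted 1979 nt. It covered 1889, 782 and 1919 nt in the knockdown and 1204, 603 and 1949 nt with scrambled siRNA. In knockdown replicate 1 site 4 was a single peak of 1889 nt, and in scrambled replicate 1 it was 4 peaks of at most 421 nt.

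NSD2 (gene number 7468, chromosome 4, plus strand), which is activated by a translocation in myeloma, had 7 sites over 80.8 kb. Its peaks covered 1656, 271 and 2195 nt in the knockdown and 845, 422 and 2077 nt with scrambled siRNA. The knockdown was longer in replicates 1 and 3 and shorter in replicate 2. Only site 6, at 1978406 to 1981204, was called in all 6 libraries, and in knockdown replicate 2 it was the one NSD2 peak. Site 6 covered 572, 271 and 841 nt in the knockdown and 602, 301 and 721 nt with scrambled siRNA, and 271 nt at 1980514 to 1980784 were common to all 6.

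DOT1L (gene number 84444, chromosome 19, plus strand) was the most compact, with 3 sites within 8.25 kb, and none of its peaks was spliced. Its peaks covered 1380, 332 and 1919 nt in the knockdown and 570, 272 and 1440 nt in the scrambled libraries. The knockdown was longer in every pair, by 810, 60 and 479 nt. Site 2, at 2226281 to 2227119, was called in every library and was longer in every pair, at 749, 241 and 839 nt against 570, 211 and 659 nt. Site 3, at 2229763 to 2230542, covered 541, 91 and 780 nt in the knockdown and 0, 61 and 720 nt with scrambled siRNA. Site 1 was called in 2 knockdown libraries and 1 scrambled library.

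**Figure D2:**
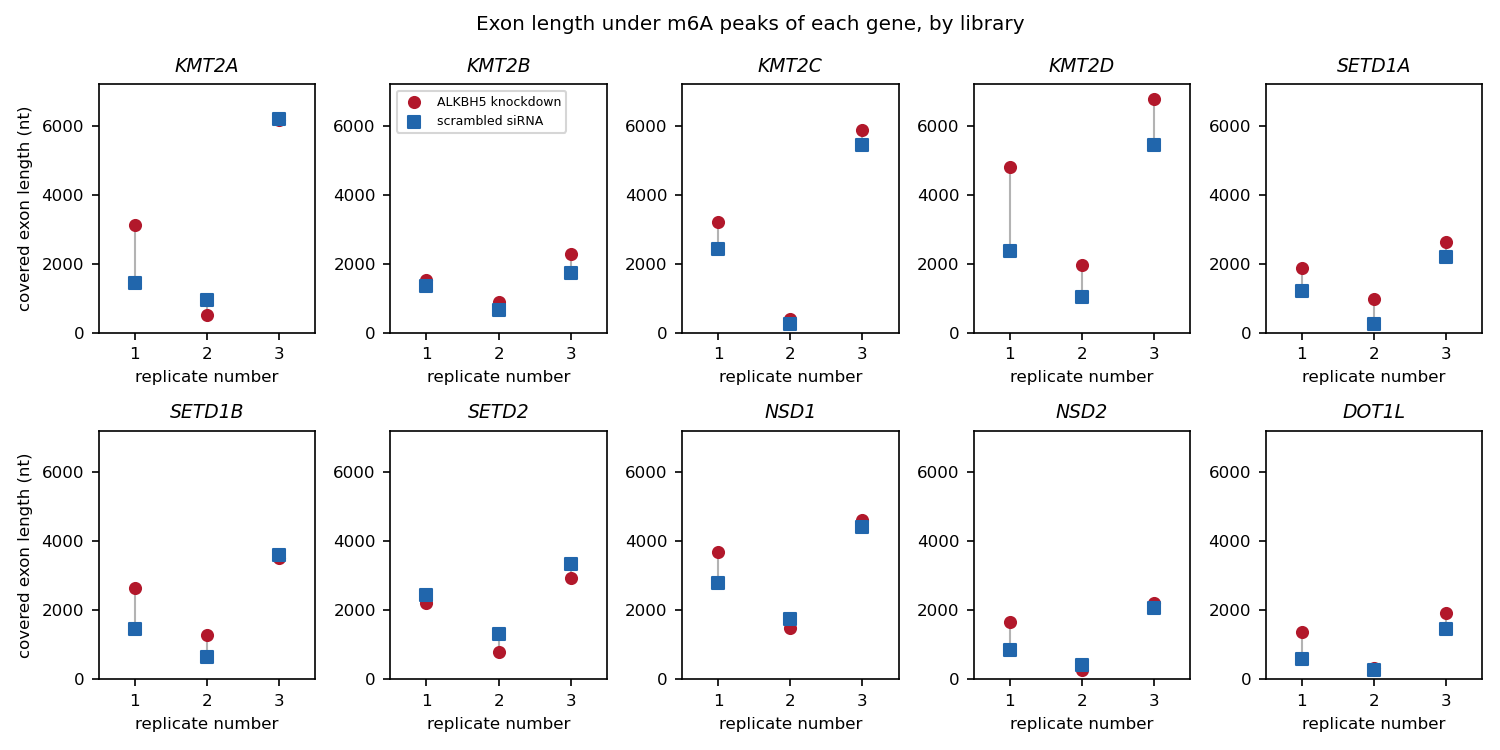
Exon length under m6A peaks of each gene (nt, y axis from 0) by replicate number, with the ALKBH5 knockdown as red circles and the scrambled siRNA as blue squares, 1 library each, joined within a number. KMT2D lies above its scrambled partner in all 3 pairs (4807, 1957 and 6782 nt against 2377, 1025 and 5433 nt) and SETD2 below it.

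Across the 10 genes, the covered length was longer in the knockdown of every pair for 5, KMT2B, KMT2C, KMT2D, SETD1A and DOT1L, and shorter in every pair for 1, SETD2. The background was 13.0% longer and 1.42% shorter among all genes named in any list, and 34.1% longer and 2.08% shorter among the 2452 genes called in all 6 libraries, which is the fairer base because all members belong to it. Among the 707 other genes of that base with as many peaks as the members, 15 to 50, 43.6% were longer and 1.70% shorter. The 5 of 10 that were longer are therefore near the share seen in similar genes. Replicate 1 was the most one-sided pair: 9 of 10 members and 91.0% of the genes called in all 6 libraries were longer in its knockdown. In replicate 2 the members divided into 6 longer and 4 shorter, and in replicate 3 into 7 longer and 3 shorter.

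No gene could pass a test of the difference at 0.05, whatever its values. The two-sided exact permutation test of 3 against 3 libraries cannot go below 0.1, and over the 10 members its p ranged from 0.5 for KMT2B, KMT2D and SETD1A to 1.0 for KMT2A. After Benjamini-Hochberg adjustment of the exact permutation p over 10536 genes, 0 genes were at or below 0.05 (background 0%), and 0 were below 0.05 before adjustment. No member had knockdown and scrambled libraries that did not overlap, against a background of 0.285% of genes higher and 0.0285% lower in the knockdown. The median difference of mean covered length was 429.8 nt over the members, 120 nt over the genes called in all 6 libraries and 40 nt over all genes. These sets differ in peaks per gene, with medians of 31.5, 11 and 6, so differences in nt are not on 1 scale. As ratios of knockdown to scrambled length, the median member stood at 1.69, 1.29 and 1.07 in replicates 1, 2 and 3. The median gene called in all 6 libraries stood at 1.44, 1.08 and 1.04.

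Knockdown lists also covered more exon in total, by ratios of 1.57, 1.13 and 1.00 in replicates 1, 2 and 3, close to the ratios of 1.54, 1.19 and 1.09 for the members together. As a share of the covered length of its list, KMT2D was still longer in every pair, with ratios of 1.29, 1.70 and 1.24, and so was DOT1L, with 1.54, 1.08 and 1.33, the only members of which that held. On that scale 14.5% of the genes called in all 6 libraries were longer in every pair. KMT2B, KMT2C and SETD1A were below 1 in replicate 1, at 0.720, 0.841 and 0.984. SETD2 was again shorter in every pair, at 0.574, 0.537 and 0.879, against a background of 17.4% shorter. Within the best-scored 50% of each list, or with all lists cut by score to the size of the shortest, no member was shorter in every pair. With the best-scored 50%, SETD1A left the members that were longer in every pair. With all lists at the size of the shortest, KMT2C left them and SETD1B joined.

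Most sites were called as often in one condition as in the other. Of the 60 sites, 13 were called in more knockdown than scrambled libraries, 9 in fewer and 38 in as many. The background over regions with a gene number was 32.7% in more and 22.9% in fewer, against 21.7% and 15.0% of these sites. The 13 sites lay in KMT2A (4), KMT2D (4), SETD1B (2), DOT1L (2) and SETD1A (1), and the 9 in KMT2A (5), SETD2 (2) and NSD2 (2). The largest difference was 3 knockdown libraries against 1, at KMT2D site 5 and SETD1B sites 1 and 4. At no site did all 3 libraries of 1 condition have a call and all 3 of the other lack one.

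**Figure D3:**
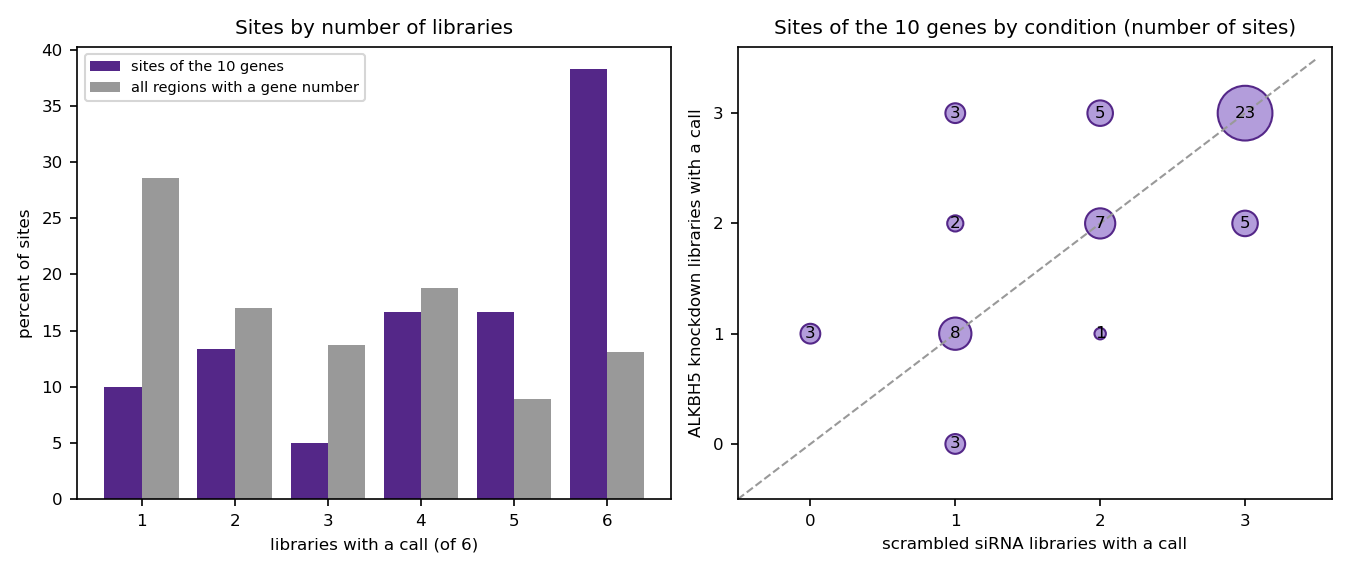
Left, percent of sites (y axis) by the number of libraries with a call (x axis), for the 60 sites of the 10 genes in purple and the 20892 regions with a gene number in grey. Right, the 60 sites by the number of scrambled (x axis) and knockdown (y axis) libraries with a call, with the number of sites in each circle; 23 sites sit at 3 against 3, and the dashed line marks equal numbers.

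At sites called in both libraries of a pair, the knockdown peak area was longer at 30 of 39 sites in replicate 1, 12 of 24 in replicate 2 and 31 of 52 in replicate 3, and shorter at 7, 9 and 15. Over all regions with a gene number the knockdown was longer at 78.1%, 50.9% and 47.4%. Among the 23 sites called in all 6 libraries, 7 were longer in every pair against a background of 31.5%, and 1 was shorter in every pair, SETD2 site 4, against 1.90%. The 7 were KMT2C sites 2 and 5, KMT2D sites 4 and 8, SETD1A site 3, SETD1B site 3 and DOT1L site 2. Of these, KMT2D site 4 had no base covered in all 6 libraries. Peaks covered 42531 nt of exon in the 10 genes in any library and 4549 nt in all 6, in 21 sites.

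By score, these genes ranked above the median gene of each list with 3 exceptions. The best-scored peak of a member stood at a median within-list percentile of 96.2, 87.1 and 90.7 in the knockdown lists of replicates 1, 2 and 3 and 89.8, 76.3 and 84.6 in the scrambled libraries. The median over all genes with a peak lay between 59.6 and 66.2. Members with more peaks have more chances of a high score, and the score ran with peak length in each list (Spearman correlation across peaks from -0.79 to -0.87, a description over peaks of 1 library each). NSD1 ranked above 90 in all 6 lists. The 3 exceptions were scrambled values of replicate 2, KMT2C at 31.7, SETD1A at 53.2 and NSD2 at 57.0, which lay below the median gene of that list, at 60.0.

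**Figure D4:**
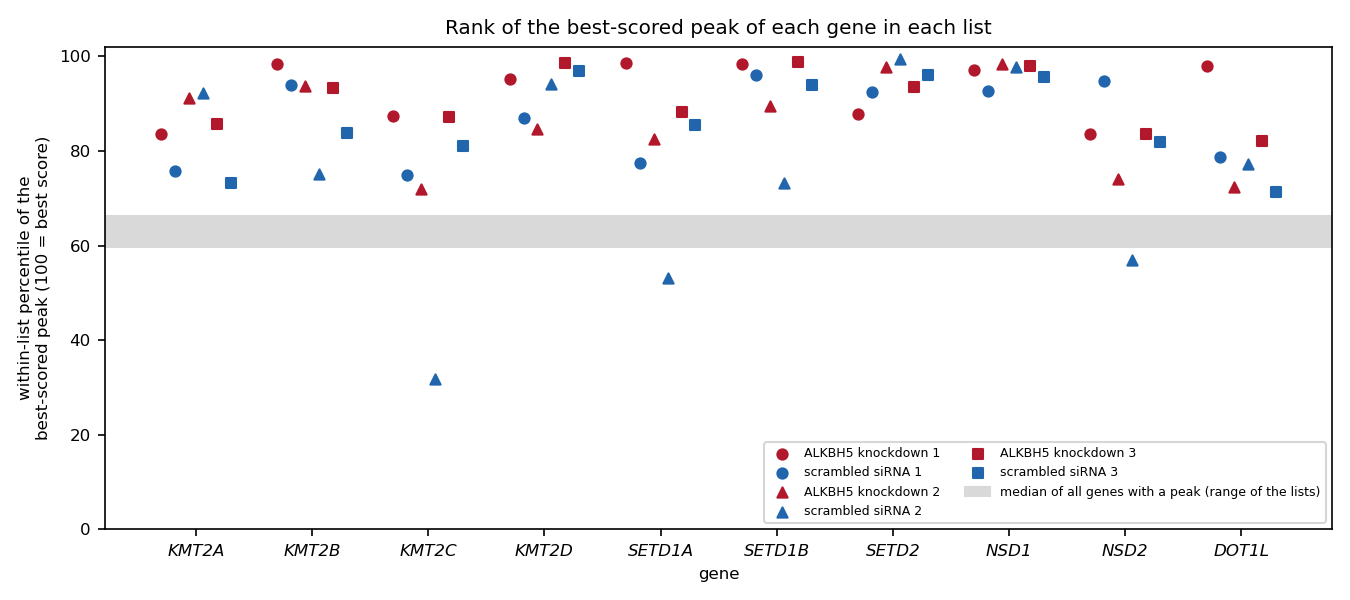
Within-list percentile of the best-scored peak (y axis, 100 is the best score) for each gene and library, with circles, triangles and squares for replicates 1, 2 and 3, red for the knockdown and blue for the scrambled siRNA. The grey band is the range over the lists of the median of all genes with a peak, 59.6 to 66.2, and only scrambled replicate 2 of KMT2C, SETD1A and NSD2 falls below it.

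In all 10 genes the range over replicate numbers under either siRNA was larger than the difference within any pair. Summed over the 10 genes, peaks covered 26106, 8881 and 38933 nt in the knockdown of replicates 1, 2 and 3 and 16908, 7469 and 35847 nt in the scrambled libraries, means of 24640 ± 15080 nt and 20075 ± 14452 nt (SD, n = 3 each). Every member was longest in replicate 3 under both siRNAs. The total RNA libraries of replicate 2 called 38 of the 60 sites, and 2 of those, KMT2A sites 4 and 5, were called in replicate 2 alone. As a share of the list, the members took up more of replicate 2, with 0.710% and 0.652% of the peaks in the knockdown and scrambled library, than of the other lists, where they held 0.316% to 0.416%. RNA type, the antibody as the protocol gives it and list size changed together with the replicate number and cannot be told apart.

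Other genes of histone lysine methylation were set beside the 10. Of 26 further genes listed as histone lysine methyltransferases, whose enzyme activity was not examined, 21 had a peak. Of these, 9 had peaks in all 6 libraries, against 23.3% of all genes. In the knockdown, 6 were called in more libraries and 2 in fewer, against 26.1% and 17.1% of all genes. In every pair 8 were longer and 1, SUV39H2, was shorter, against 13.0% and 1.42% of all genes. Among genes called in all 6 libraries those shares were 34.1% and 2.08%. The median difference of mean covered length of the 21 was 167.7 nt. None of the 21 could pass the exact permutation test, whose smallest p is 0.1. The 4 with the largest difference in calls, ties settled by covered length, were MECOM, KMT5C, SETD7 and SUV39H1, each called in 3 knockdown and 2 scrambled libraries and each missing from scrambled replicate 2. MECOM, a transcription factor of the PRDM family, covered 1531, 61 and 1767 nt in the knockdown and 690, 0 and 1648 nt with scrambled siRNA. KMT5C, which methylates histone H4, covered 599, 270 and 718 nt against 210, 0 and 658 nt. NSD3, the closest relative of NSD1 and NSD2, covered 1501, 151 and 1742 nt in the knockdown and 422, 332 and 1951 nt with scrambled siRNA, longer in replicate 1 only. KMT2E, which shares the KMT2 name, covered 1683, 271 and 1803 nt against 1446, 151 and 2312 nt.

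Among 15 subunits of the complexes in which the KMT2 and SETD1 enzymes work, 14 had a peak but only 1, NCOA6, in all 6 libraries, against 23.3% of all genes. Of these subunits 4 were called in more knockdown libraries (BOD1, HCFC1, MEN1 and CXXC1) and 3 in fewer (PSIP1, RBBP5 and WDR82), against 26.1% and 17.1% of all genes. The median difference was 35 nt. HCFC1 and MEN1 were longer in every pair and PSIP1 was shorter, against 13.0% and 1.42% of all genes. MEN1, the tumour suppressor menin that binds KMT2A and KMT2B, covered 839, 450 and 960 nt in the knockdown and 240, 0 and 689 nt with scrambled siRNA (two-sided exact permutation test, p = 0.2). HCFC1, a subunit of SETD1 and KMT2A complexes, covered 1262, 121 and 1801 nt against 241, 0 and 1352 nt. PSIP1, which tethers KMT2A to chromatin, went the other way, with 271, 0 and 0 nt against 302, 120 and 61 nt. BOD1 was called in 3 knockdown libraries and 1 scrambled library.

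All 13 listed partners of DOT1L and elongation factors had a peak, 7 in all 6 libraries, against 23.3% of all genes. Of these, 3 were called in more knockdown libraries and 0 in fewer, against 26.1% and 17.1%, and the median difference was 50.3 nt. In every pair 2 were longer, IWS1 and MLLT1, and 1 was shorter, AFF4, against 13.0% and 1.42% of all genes. IWS1, MLLT1 and AFF4 had peaks in all 6 libraries, and among such genes those shares were 34.1% and 2.08%. IWS1, which links SETD2 to the elongating polymerase, covered 900, 841 and 1050 nt in the knockdown and 602, 512 and 990 nt with scrambled siRNA. AFF4, a scaffold of the super elongation complex, covered 902, 302 and 1592 nt against 963, 482 and 1712 nt. MLLT6 covered 420, 0 and 599 nt against 0, 0 and 240 nt, SUPT16H was called in 2 libraries against 1 and CDK9 in 3 against 2.

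Histone lysine demethylases have the opposite activity. Of 24, 19 had a peak and 7 had peaks in all 6 libraries, against 23.3% of all genes. The knockdown had more calls for 5 (KDM4B, PHF2, KDM4A, KDM5C and RIOX2) and fewer for 1 (KDM2B), against 26.1% and 17.1% of all genes. KDM4B, PHF2, KDM2A and KDM6B were longer in every pair and 0 were shorter, against 13.0% and 1.42% of all genes, with a median difference of 100 nt. KDM2A and KDM6B had peaks in all 6 libraries, and among such genes those shares were 34.1% and 2.08%. KDM4B covered 121, 61 and 811 nt in the knockdown and 90, 0 and 151 nt with scrambled siRNA, and PHF2 covered 420, 61 and 840 nt against 180, 0 and 480 nt. KDM4A was called in 3 knockdown and 2 scrambled libraries, and KDM2B in 2 and 3. SUV39H2, NSD3, KMT2E, NCOA6, CXXC1, RBBP5, WDR82, MLLT1, AFF4, KDM5C, RIOX2, KDM2A and KDM6B were named after their values were seen. Whether any list differed from the 10 genes in its response was not tested.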

How the data were processed

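m6A peak lists of 6 immunoprecipitates, 3 per condition by title, were analysed. Per the submitters' processing notes, CASAVA 1.8.2, TopHat2 and SAMtools were used with hg19; the sources used here give neither their roles nor the peak caller, its threshold or the use of input. Each list, deposited per library, held 12 columns. The authors deposited 1 score per peak, which was treated as a p-value made by their peak caller because it ranges from 0 to 0.011, and it only ranks peaks within a list. Positions, counted from 1, are on hg19. Depth is unknown, so no interval for counting error is given.

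Covered length is the union of exon blocks of peaks carrying a gene number. Symbols came from a RefSeq table of GRCh38.p14 (10500 of 10536 numbers matched), used for names only. Annotation of exons or UTRs on hg19 and sequences under the peaks were not used here. Python 3.11.15, pandas 2.3.3, numpy 2.4.6 and scipy 1.17.1 were used, and the calculations were tested on simulated data. Tests were two-sided exact permutation tests of group means with Benjamini-Hochberg adjustment and a threshold of 0.05. Over 21675 regions, libraries with the same number deviated together (correlations of 0.24, 0.31 and 0.29), and the protocol ties each number to a method, so the numbers pair the libraries. All 10 members were named, with up to 4 genes of each further list by largest difference in libraries called. The members and lists were chosen with earlier results of these data known. The alternatives were the best-scored 50%, equal list sizes, libraries left out, scaling to list length, extension by 100 bp, overlap of 50 bp, positions listed for 1 gene and a replicate block.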

Additional observations from a re-analysis of the deposited data

How the results depend on the processing

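With a replicate block, which flips the signs of the 3 differences within numbers in an exact test and cannot go below p = 0.25, 0 genes could be at or below an adjusted 0.05, which says nothing about stability. By differences within numbers, 13 member sites were called more and 9 less often in the knockdown. With the best-scored 50% of each list, 15 sites in place of 23 were called in all 6 libraries and 0 members were shorter in every pair, and with all lists at equal size these values were again 15 and 0. With lists scaled to equal covered length, 2 members were longer in every pair in place of 5. The difference of mean covered length turned negative for KMT2A at equal list size (-420.7 nt) and, under that scaling, for KMT2A (-528.3 nt), NSD1 (-819.5 nt) and NSD2 (-173.5 nt).

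Leaving out 1 library or both of a number gave 5 to 7 members longer and 1 to 2 shorter in every remaining pair. With fewer pairs these counts cannot fall below the 5 and 1 of all pairs, so their lower ends were fixed in advance. From 23 to 39 sites were called in all remaining libraries, a count that fewer libraries tend to raise. In the knockdown 7 to 30 sites were called more and 4 to 28 less often. With 1 library left out, the share of 2 libraries was set against the share of 3. Only sites called in all remaining libraries could then tie, so partly called sites had to count as more or less often. With both libraries of replicate 1, 2 or 3 left out, 11, 7 and 25 sites were called more and 7, 4 and 14 less often. The summed difference ranged from -2581 to 12452 nt. The sum turned without control replicate 2 (-1738 nt) or knockdown replicate 3 (-2581 nt). With both libraries of replicate 1, 2 or 3 left out it stayed positive, at 2249, 6142 and 5305 nt. Leaving out 1 library leaves its partner unmatched, so the methods are then unequally represented in the group means. Among single genes, KMT2A (-224 nt), NSD1 (-30 nt) and NSD2 (-16.5 nt) turned without both libraries of replicate 1. KMT2A was the second shorter member without replicate 1. Over all 9 settings with libraries left out, single-gene differences ranged from -1036 to 2075 nt for KMT2A and -36.3 to 653.2 for KMT2B. For KMT2C they ran from -899.8 to 1847, for KMT2D from 437 to 2850 and for SETD1A from 123.5 to 1099. For SETD1B they ran from -39.3 to 1445, for SETD2 from -911.2 to 214.7 and for NSD1 from -400.3 to 1172. For NSD2 they ran from -151.2 to 810.8 and for DOT1L from 95.3 to 888.8. The cause of these reversals was not tested.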
